A study of Mus musculus with 58 samples.

Results

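Cry1 and Cry2 encode the cryptochromes, and their BMAL1 and CLOCK peaks were taken from 4 deposited peak lists of mouse NIH3T3 cells and mouse liver. Members were every BMAL1 peak that the authors annotated to Cry1 or Cry2, plus every CLOCK peak whose centre lay within 5 kb of one of these. This gave 6 of 463 NIH3T3 BMAL1 peaks, 6 of 1254 liver BMAL1 peaks, 3 of 1016 NIH3T3 CLOCK peaks and 2 of 439 liver CLOCK peaks, or 17 of 3172 entries. The rule used gene names and positions and no measured value.

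Cryptochromes are flavoproteins related to DNA photolyases that have lost the repair activity. In the mammalian clock they join the PERIOD proteins and hold back the activator pair CLOCK and BMAL1, which binds E-box sequences in DNA. The cryptochrome genes are themselves targets of that pair, so their products close a negative feedback loop. In liver they are also known to restrain the glucagon response and glucose production.

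The NIH3T3 groups were BMAL1 ChIP-seq libraries (7, taken 12, 18, 20, 22, 26, 30 and 38 h after dexamethasone) and CLOCK ChIP-seq libraries (6, taken 18, 22, 26, 30, 34 and 38 h after it). NIH3T3 is an embryonic mouse fibroblast line, and a 30 min pulse of 100 nM dexamethasone, a glucocorticoid, had set its cellular clocks in phase. The labels attach the NIH3T3 BMAL1 list to all 7 libraries, but its own name gives 20 h alone, and which libraries entered the calls is not stated. The liver CLOCK list belonged to 1 sample, pooled according to its title, from C57/BL6 mice of 12 to 14 weeks kept in 12 h light and 12 h dark with free food, and no time was given for it. For liver BMAL1 the authors had reprocessed libraries of an earlier study, taken at zeitgeber time 6, which are not among the 58 samples. Several immunoprecipitations had been pooled before sequencing, and liver is a mixture of cell types. The lists hold positions without a height, a score or a value per library, so replicate error and depth cannot be given, and the labels of the cells and tissue could not be checked against marker genes. The RNA libraries of the study, and its polymerase and input libraries, were not analysed.

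The promoter sequences are shown first because the E-box is the sequence that CLOCK and BMAL1 bind and both genes had peaks near their start sites. Both are RefSeq promoter windows of build GRCm38.p6, cut to the 250 bases before the start site and written 5′ to 3′ on the gene's strand, which is the minus strand for both genes. Capitals mark the E-box (letters CACGTG) and the E′-box, a variant of it (letters CACGTT, which read AACGTG on the other strand). The Cry1 window is chr10:85185055-85185304 and the Cry2 window is chr2:92434070-92434319.
Cry1: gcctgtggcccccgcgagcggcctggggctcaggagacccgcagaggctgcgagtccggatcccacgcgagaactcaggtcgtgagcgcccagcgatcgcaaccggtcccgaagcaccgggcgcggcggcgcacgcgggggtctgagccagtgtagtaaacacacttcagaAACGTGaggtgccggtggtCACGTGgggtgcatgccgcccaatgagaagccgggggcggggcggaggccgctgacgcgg
Cry2: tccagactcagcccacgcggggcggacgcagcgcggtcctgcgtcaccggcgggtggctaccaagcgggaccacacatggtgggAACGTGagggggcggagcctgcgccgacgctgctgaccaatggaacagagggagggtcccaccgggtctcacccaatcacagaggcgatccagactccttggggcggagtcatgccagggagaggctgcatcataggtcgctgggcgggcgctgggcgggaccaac

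Cry1 carried 3 BMAL1 peaks in NIH3T3 cells and the same 3 in liver, all within 344 bp of its start site. The peaks covered chromosome 10, 84647758 to 84647807, 84647846 to 84647895 and 84648117 to 84648170 in build mm9. The authors placed them at 17, -71 and -344 bp from the start site of Cry1. Cry1 is on the minus strand and the peaks with higher coordinates have negative distances, so a negative distance is upstream. All 3 distances lead back to the same start site, 84647799. The first pair of peaks was 88 bp apart between centres and the second pair 273 bp, and the whole group spanned 413 bp.

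Cry2 also carried 3 BMAL1 peaks in NIH3T3 cells and the same 3 in liver, but at separate places. A single peak lay upstream of the start site at -192 bp and covered chromosome 2, 92274366 to 92274419. The other entries overlapped each other at 92263997 to 92264076 and 92264002 to 92264051, with centres 10 bp apart, and the authors gave both as 8513 bp downstream. The upstream peak and these entries were 10356 and 10366 bp apart. The distances of Cry2 do not lead back to a common start site. Counted from peak centres, the upstream peak implies a start at 92274200, and the downstream entries imply starts 1651 and 1661 bp away from it. From 92274200 the downstream entries lie at 10164 and 10174 bp. Both downstream entries carry the same distance although their centres differ by 10 bp, so the gap between their implied starts may not be the authors' own. No annotation of build mm9 was used here, so whether the downstream site is exonic or intronic is not given.

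When peaks with centres under 1 kb apart were joined, the 6 intervals formed 3 sites. These were the Cry1 promoter, the Cry2 promoter and the downstream Cry2 site. Counts of entries therefore weigh the Cry1 promoter 3 times. In NIH3T3 cells 5 of the 6 Cry peaks had another peak of the same list within 500 bp, against 37.6% of that whole list. In liver 5 of 6 did, against 19.0% of the whole list.

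All 6 Cry intervals had the same start and end in both BMAL1 lists. Identical intervals made up 56.8% of the NIH3T3 list and 21.0% of the liver list. With partners counted at centres within 500 bp, the shares were 6 of 6 Cry peaks in NIH3T3 cells against 59.2% of that list, and 6 of 6 in liver against 21.8% of that list. The Cry entries stood in lines 35 to 37 and 151 to 153 of both lists, inside an opening block of 263 lines that the lists share word for word. Outside that block, 11 of the other 200 NIH3T3 entries and 10 of the other 991 liver entries had a partner within 500 bp. In the block 141 of 263 peaks were not 50 bp wide, among them the Cry peaks of 54 and 80 bp. Over each whole list the widths ran from 5 to 100 bp with a median of 50 bp, and the share for the later lines is not given. The Cry intervals thus give no separate BMAL1 position for each context, and a difference in BMAL1 position between NIH3T3 cells and liver cannot be read from them.

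CLOCK positions, in contrast, were listed separately for each context. At the Cry1 promoter both contexts had CLOCK. NIH3T3 cells had CLOCK peaks of 50 bp at 84647858 to 84647907 and at 84648081 to 84648130 on chromosome 10. The first had its centre 12 bp from the BMAL1 peak at -71 bp, and the second 38 bp from the BMAL1 peak at -344 bp. Liver had 1 CLOCK peak of 250 bp, at 84647865 to 84648114, whose centre lay 107 and 116 bp from those of the NIH3T3 CLOCK peaks. It overlapped both of them, by 43 and 34 bp. The centres of all 3 CLOCK peaks thus fell on the same stretch of the Cry1 promoter, between the outer BMAL1 peaks.

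At Cry2 the contexts differed in which BMAL1 site had CLOCK. NIH3T3 cells had 1 CLOCK peak, at 92274372 to 92274421 on chromosome 2, with its centre 4 bp from the BMAL1 peak at -192 bp. Liver had 1 CLOCK peak, at 92263893 to 92264142, with its centre 9 bp and 19 bp from those of the downstream BMAL1 entries. The nearest NIH3T3 CLOCK centre to the downstream entries was 10360 and 10370 bp away, which is the CLOCK peak of the promoter. The nearest liver CLOCK centre to the promoter peak was 10375 bp away, which is the CLOCK peak of the downstream site. Each context therefore had CLOCK at 1 of the 2 Cry2 sites, and not at the same one. With 1 list per context and neither depth nor thresholds given, this difference could not be tested, and an unlisted peak is not evidence that CLOCK was absent.

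**Figure D1:**
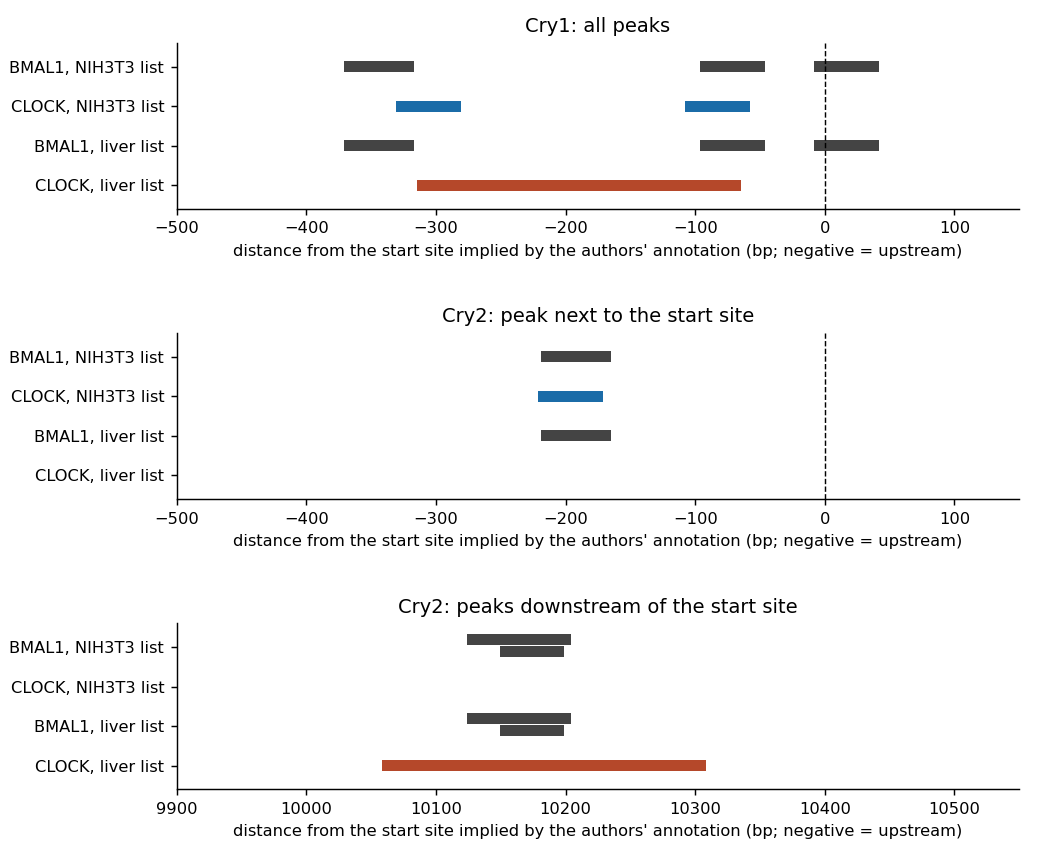
Peaks of Cry1 and Cry2 by distance from the start site implied by the authors' annotation (bp, negative upstream; for Cry2 the start implied by the peak at -192 bp). Bars are deposited intervals, drawn to scale, with a row for each list. At Cry1 the CLOCK centres stand between the outer BMAL1 peaks in both contexts, while at Cry2 the NIH3T3 CLOCK peak stands at -196 bp and the liver CLOCK peak at 10183 bp.

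The share of Cry peaks with CLOCK beside them was above that of the whole list in both contexts. In NIH3T3 cells 4 of 6 Cry BMAL1 peaks had a CLOCK centre within 500 bp, against 22.0% of the list (95% Clopper-Pearson interval 18.3 to 26.1). In liver 5 of 6 Cry BMAL1 peaks did, against 4.31% of the list (3.25 to 5.58). These are counts of entries, and the CLOCK beside them amounts to 3 NIH3T3 and 2 liver peaks. The liver list holds 991 entries outside the block shared with the NIH3T3 list, and the share within the block is not given. The Cry peaks are few, overlap and were picked with earlier results known, so no test is given for these counts. With an overlap of 1 bp or more asked for in place of a centre distance, the Cry counts were 3 of 6 in NIH3T3 cells, against 12.5% of the list, and 3 of 6 in liver, against 3.91% of the list. The Cry1 peak at 17 bp then had no CLOCK in either context. Of all CLOCK peaks, 9.45% in NIH3T3 cells and 13.2% in liver had any BMAL1 centre within 5 kb. That is the distance that chose the 3 and 2 Cry CLOCK peaks, so it is given for scale alone.

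The distance from a BMAL1 peak to the nearest CLOCK centre separated the Cry peaks further. In NIH3T3 cells the Cry2 promoter peak at 4 bp was among the 9 peaks of 463 (1.94%) with CLOCK as near or nearer. The Cry1 peaks at -71, -344 and 17 bp had CLOCK at 12, 38 and 100 bp, distances reached by 3.67%, 9.94% and 17.9% of the list. In liver the downstream Cry2 entries at 9 and 19 bp were among 0.877% and 1.59% of 1254 peaks. The Cry1 peaks at -71, -344 and 17 bp had liver CLOCK at 119, 154 and 207 bp. These distances were reached by 3.83%, 4.07% and 4.23% of the liver list, where 4.31% had CLOCK within 500 bp. The downstream Cry2 entries in NIH3T3 cells, at 10360 and 10370 bp, stood at 23.8% and 24.0% of the list. The Cry2 promoter peak in liver, at 10375 bp, stood at 5.18%. The median distance over the whole lists was 373747 bp in NIH3T3 cells and 2150691 bp in liver. The liver CLOCK peaks are 5 times as wide as the NIH3T3 ones, and the centre of a wide peak marks a site less closely.

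**Figure D2:**
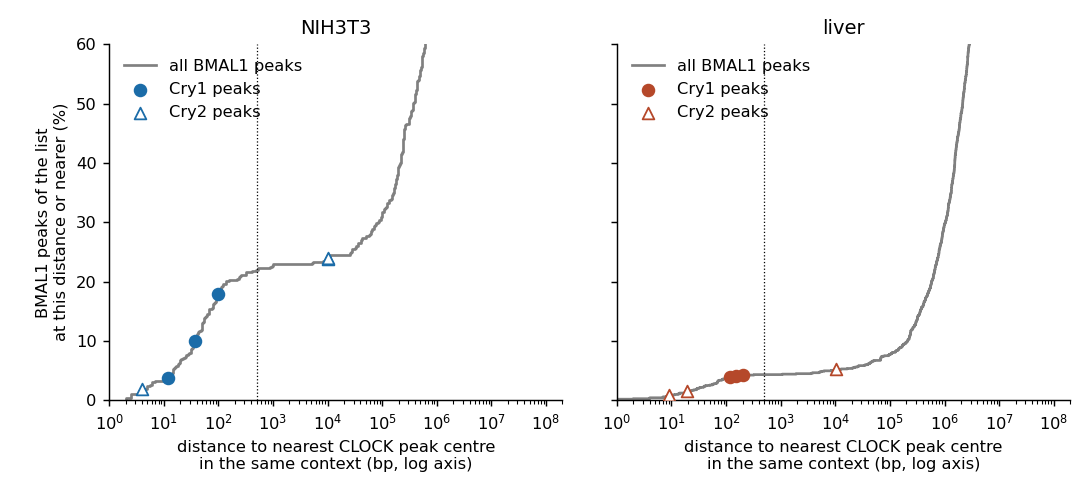
Distance from each BMAL1 peak to the nearest CLOCK centre of the same context (bp, log axis) against the percentage of the list that is as near or nearer, for NIH3T3 (left) and liver (right). Filled circles are Cry1 peaks, open triangles Cry2 peaks, the grey line all BMAL1 peaks, and the dotted line 500 bp. All Cry1 peaks lie left of the dotted line in both panels, and the Cry2 peaks are split by it in both.

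Both BMAL1 lists had a peak at 192 sites, after joining peaks under 1 kb apart, and CLOCK fell on them unevenly. Of 274 NIH3T3 peaks with a liver partner within 500 bp, 263 stand in the shared opening block. Most of these sites thus give no separate BMAL1 position for each context. The CLOCK lists also differ in size, with 1016 peaks in NIH3T3 cells and 439 in liver. CLOCK of both contexts stood at 13 of the 192 sites (6.77%, 95% Clopper-Pearson interval 3.65 to 11.3), the Cry1 promoter among them. NIH3T3 CLOCK alone stood at 36 (18.8%, 13.5 to 25.0), among them the Cry2 promoter. Liver CLOCK alone stood at 9 (4.69%, 2.17 to 8.71), among them the downstream Cry2 site. The other 134 (69.8%, 62.8 to 76.2) had CLOCK in neither context, and no Cry site was among them.

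A split such as that of Cry2 can be looked for only in genes with at least 2 such sites, and there were 6, named here after their values were seen. Cry2 was 1 of these 6, and it alone had NIH3T3 CLOCK without liver CLOCK at a site and the reverse at another. Nr1d1 (which encodes REV-ERBα) had both CLOCK lists at each of its 2 sites. Dbp (a bZIP output factor) had both at 2 of 3 sites and neither at the third. Per1 had NIH3T3 CLOCK at 2 sites and liver CLOCK at 1 of them. Bhlhe41 (DEC2) and Tsc22d3 (a glucocorticoid-induced factor) had NIH3T3 CLOCK at 1 and 2 of 2 sites and liver CLOCK at none. With 6 genes this is a description of these lists.

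The sequence windows hold different E-box letters in the Cry genes. The Cry1 window had 1 E-box, beginning 60 bases before the start site, and 1 E′-box, beginning 79 bases before it, with 13 bases between them. Cry2 had no E-box and 1 E′-box, beginning 166 bases before the start site. On both strands and over the whole windows, which run to 50 bases after the start, the E-box occurred in 7.15% and the E′-box in 4.68% of 32851 RefSeq promoter windows. Both motifs together, as in Cry1, occurred in 136 windows (0.414%). Among the 567 windows of genes with a BMAL1 peak within 1 kb of the start site in either list, 36.9% had the E-box, 8.11% the E′-box and 3.53% both. For those windows 435 of 540 genes (80.6%) could be matched by symbol or synonym. The E-box figure is a description, since binding within 1 kb chose the genes.

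Measured from their own start sites, the motifs and the peaks can be set side by side, although the peaks are in mm9 and the windows in GRCm38.p6 and the start sites were not matched between builds. The Cry1 BMAL1 peak at -71 bp would then hold both motifs, with its centre 5.5 bp from the middle of the E′-box and 13.5 bp from that of the E-box. The NIH3T3 CLOCK peak there would hold the E′-box, 6.5 bp from its centre. The wider liver CLOCK peak of Cry1 would hold the E′-box too, 113.5 bp from its centre. Neither of these CLOCK peaks would hold the whole E-box. For Cry2 the middle of the E′-box would lie 28.5 bp from the centre of the BMAL1 peak at -192 bp. It would lie 32.5 bp from that of the NIH3T3 CLOCK peak, and neither interval would hold the whole motif. The Cry1 peaks at 17 and -344 bp would hold neither of the Cry1 matches. The sequence of the downstream Cry2 site and of the Cry1 peak at -344 bp was not analysed here.

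Around the E′-box the Cry genes share more letters than the motif itself. The motif and its flanks are printed with those of Nr1d1, on each gene's own strand and with the motif in capitals. Nr1d1 was the one gene with an E′-box when the windows of Per1, Per3, Nr1d1, Nr1d2, Bhlhe41 and Gm129 were searched. No window was matched for Per2 or Bhlhe40, so whether their promoters hold an E′-box is not given. The stretches lie at chr10:85185119-85185142, chr2:92434221-92434244 and chr11:98775391-98775414 in GRCm38.p6.
Cry1: cacttcagaAACGTGaggtgccgg
Cry2: catggtgggAACGTGagggggcgg
Nr1d1: acagatctcAACGTGccggctgct
Cry1 and Cry2 have the 9 letters AACGTGAGG in common, which Nr1d1 does not have. These letters, looked for after the sequences had been seen, occurred on either strand in 25 of 32851 windows (0.0761%). They contain the E′-box itself, and among the 1539 windows with an E′-box the share was 1.62%.

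Of the remaining motifs, the Cry windows held the GC box alone. Neither window held a D-box (TTATGNAA or TTANGTAA, the site of DBP and its relatives), which 4.71% of all windows had. Neither held the letters AGGTCA, the core of sites for REV-ERB and ROR receptors (16.3% of windows), or a cAMP element, TGACGTCA (1.79%). The GC box GGGCGG, a site for Sp family factors, occurred in 35.7% of all windows and in 66.5% of those of genes with BMAL1 within 1 kb. Cry1 had 3 copies, a number reached by 10.7% of all windows and 26.8% of the BMAL1 ones. Over the whole window Cry2 had 7 copies, 5 of them before the start site. The number 7 was reached by 0.627% of all windows and 1.94% of the BMAL1 ones. The GC content before the start site was 71.2% in Cry1 and 68.8% in Cry2, against a median of 52.4% over all windows. The median over the windows of genes with BMAL1 within 1 kb is not given. An absent motif says only that these letters are not in this window.

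By counts of list entries, Cry1 lay nearer to Per1, Per2 and the CHRONO gene than to Cry2. Likeness was taken as the sum of absolute differences over 6 counts per gene, namely BMAL1 peaks, BMAL1 peaks within 1 kb of the start site and BMAL1 peaks with CLOCK, each in NIH3T3 cells and in liver. Over 192 other genes with BMAL1 peaks in both lists, Per2 and Gm129 (which encodes CHRONO) had exactly the counts of Cry1, and Per1 followed at a difference of 1. Nearest to Cry2 was Bhlhe41 at 2, then Hlf (a bZIP output factor) and 2410080I02Rik at 3, and no gene had its exact counts. Cry1 and Cry2 differed by 7. The lists share an opening block, so the NIH3T3 and liver counts are not independent of each other. Entries of the same site also count separately. Joined into sites, Cry1, Per2 and Gm129 had 1 each, and Per1 and Cry2 had 2 each. Likeness by site was not computed, so the ranking holds for entries alone.

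Cry1 and Cry2 had 3 BMAL1 peaks each, a number that 18 of 345 genes in the NIH3T3 list (5.22%) and 42 of 985 in the liver list (4.26%) reached or passed. In NIH3T3 cells 4 of the 6 Cry peaks were no more than 1 kb from the authors' start site, against 71.7% of the list. In liver 4 of 6 did, against 44.7% of the list. Of 9 symbols in a list of clock repressors, 8 had BMAL1 peaks in both contexts, since Gm129 and Ciart name the same gene and the files use the first. Their 25 NIH3T3 peaks included 18 with CLOCK, and their 20 liver peaks included 13 with CLOCK. Per3, Bhlhe40 (DEC1) and, in liver, Bhlhe41 had BMAL1 peaks and no CLOCK. Cry1 and Cry2 had CLOCK in both contexts, as did Per1, Per2, Nr1d1, Nr1d2 and Gm129. Over all genes with BMAL1 peaks, 65 of 345 in NIH3T3 cells (18.8%) and 35 of 985 in liver (3.55%) had at least 1 with CLOCK.

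**Figure D3:**
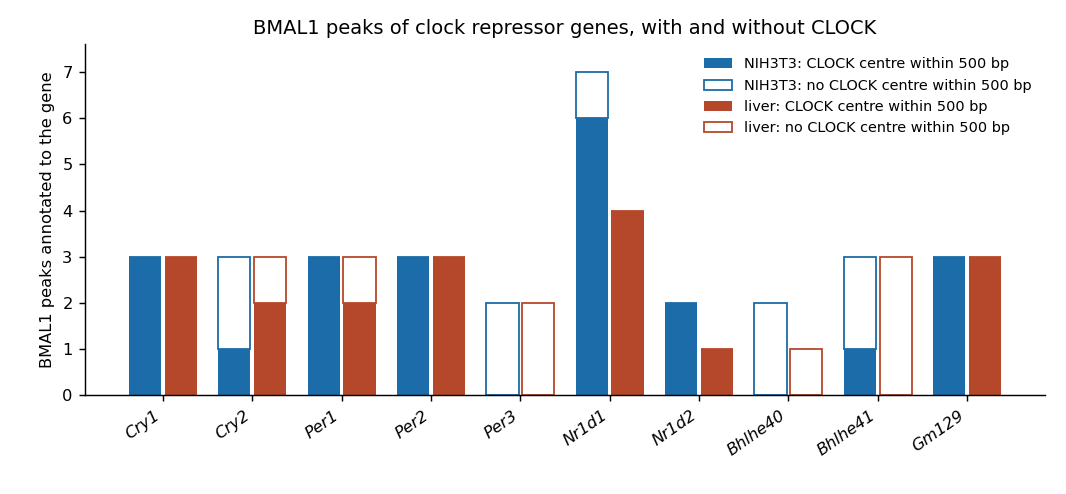
Number of BMAL1 peaks annotated to each clock repressor gene in NIH3T3 cells (left bar) and liver (right bar), split into peaks with (filled) and without (open) a CLOCK centre of the same context within 500 bp. Cry1 shows 3 of 3 with CLOCK in both contexts, and Cry2 shows 1 of 3 in NIH3T3 cells and 2 of 3 in liver.

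Genes that act on the cryptochrome proteins were looked up in the BMAL1 lists. Of 19 genes for ubiquitin ligases, deubiquitinases and kinases known to act on cryptochromes or their partners, 0 had a peak in NIH3T3 cells and 3 in liver. Over all 21896 RefSeq protein-coding symbols, 1.26% were annotated to an NIH3T3 BMAL1 peak and 3.51% to a liver one. Ddb1 (an adaptor of CUL4 ligases) had 1 liver peak at 21 bp from the start site and Usp2 (a deubiquitinase) had 1 at 1126 bp. Rbx1 (the RING subunit of cullin ligases) had 2, the nearer at 14702 bp. None of these peaks had liver CLOCK within 500 bp.

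The 3 Cry CLOCK peaks of NIH3T3 cells stood near the head of their list. The list is not sorted by position, and no source used here says what orders it. The Cry2 peak was in line 16 of 1016, and the Cry1 peaks were in line 18 (that near the BMAL1 peak at -344 bp) and line 25 (that near the one at -71 bp). Of the first 25 lines, 22 carried the name of a clock repressor, Cry or bZIP output gene, the 3 Cry lines included. The same count over the whole list is not given. A BMAL1 centre of either list lay within 500 bp of 38 of the first 50 peaks, 16 of the next 50, 15 of the next 100 and 16 of the last 816. The authors' gene for the 3 Cry CLOCK peaks was Cry2 once and Cry1 for the others, matching the BMAL1 annotation. The liver CLOCK list is sorted by position, so the lines of its Cry1 and Cry2 peaks carry no such order.

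**Figure D4:**
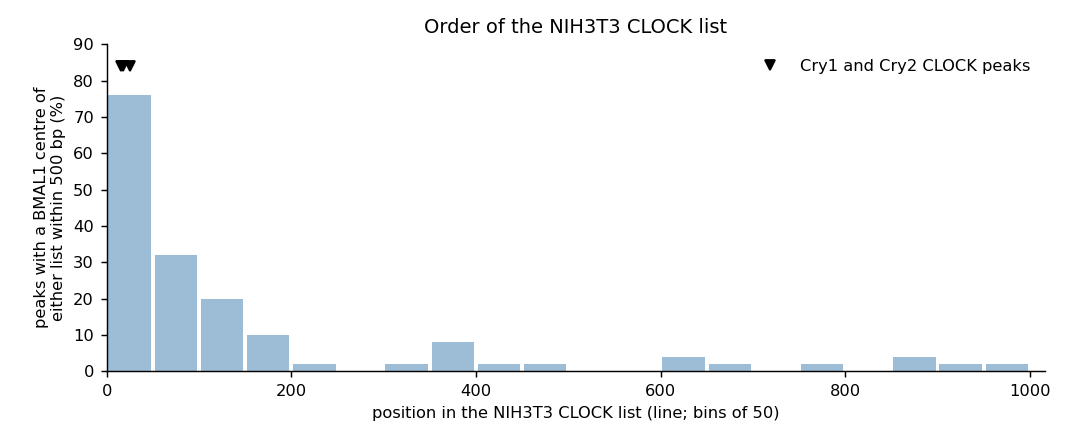
Percentage of NIH3T3 CLOCK peaks with a BMAL1 centre of either list within 500 bp, in bins of 50 lines in the order of the deposited list; the last bin is shorter. Triangles mark the Cry1 and Cry2 peaks in lines 16, 18 and 25, all within the first bin, where 38 of 50 peaks had a BMAL1 partner.

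No other peak of any of the 4 lists lay within 50 kb of a Cry BMAL1 peak. This was the usual state, since 96.5% of 345 genes in the NIH3T3 BMAL1 list and 88.5% of 985 in the liver one had no BMAL1 peak of another gene that near in the same list. The nearest other BMAL1 peak to those of Cry1 was 731830 bp away in the NIH3T3 list and 1621899 bp away in the liver list. For Cry2 it was 1839009 bp away in the NIH3T3 list and 10250916 bp away in the liver list. In the RefSeq gene order the protein-coding neighbours are Mterf2 and Btbd11 for Cry1 and Mapk8ip1 and Slc35c1 for Cry2, and neither BMAL1 list names any of these 4.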

How the data were processed

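The authors deposited intervals in build mm9, with their gene and signed distance to a start site in the BMAL1 lists and a gene in the NIH3T3 CLOCK list. The submitters' processing notes name Bowtie, SAMtools and bedtools but not what each did. No source used here gives the peak caller, its thresholds or its filters.

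Starts were converted to count from 1. Distances are between peak centres, with 500 bp for a partner and 1 kb for joining. Cry1 and Cry2, the other clock genes and the genes named by likeness (the 3 nearest by 6 counts) were taken by rules in which earlier results of these data were known. Motifs were searched on both strands in RefSeq promoter windows of GRCm38.p6, and RefSeq gene tables were used for names, chromosomes and gene order. No mm9 genome or protein table was used, so peak sequences and the planned CRY1 and CRY2 protein comparison are not given. No test was made over the members. Background shares have 95% Clopper-Pearson intervals, which cover counting error over peaks alone. Partner counting was tested on simulated data and recovered every planted partner. Planted partners lay under 500 bp away and all other simulated peaks far off, so this checks the counting code alone. The tools were pandas 2.3.3, NumPy 2.4.6, SciPy 1.17.1 and matplotlib 3.10.9 under Python 3.11.15. A gene of the list of cryptochrome regulators is not reported here.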

Additional observations from a re-analysis of the deposited data

Results flagged for a closer look

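At Cry2 the nearest CLOCK centre favoured opposite sites in the contexts. The distance to it at the promoter peak minus that at the wider downstream entry was -10356 bp in NIH3T3 cells and 10356 bp in liver. Both CLOCK centres lay outside the pair of BMAL1 centres, so each size equals the spacing of those centres, and what the contexts differ in is the sign. The difference between contexts was not tested, since each context has 1 list, and the part that depth, time of sampling and threshold have in it was not tested.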

How the results depend on the processing

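Of 27 results under alternative settings, 25 stayed within 1.5 times the main count and 2 did not. When peaks were joined under 1 kb apart, the 6 Cry BMAL1 peaks found in both lists became 3 of 3 sites, by construction. With an overlap of 1 bp or more asked for, liver CLOCK stood at 3 Cry BMAL1 peaks in place of 5, which removes the Cry1 peaks at 17 and -344 bp. A centre distance of 200 bp left 4 in liver, without the Cry1 peak at 17 bp. Windows of 500 bp to 50 kb gave the same 3 NIH3T3 and 2 liver CLOCK peaks, of which 50 kb was chosen after seeing the data. Within 200 bp of the start site there were 3 Cry peaks of 6 in place of 4, against 48.4% of the NIH3T3 list. No paired analysis was possible because the lists hold no values per library. Depth per library is unknown, so an unlisted peak may lie below a threshold that is not given.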

Other observations

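In the NIH3T3 CLOCK list the gene column stopped matching the position soon after the lines that hold Cry1 and Cry2. Among lines whose gene had a RefSeq chromosome, the gene lay on the peak's own chromosome in 40 of 43 of the first 50 lines. It did so in 6 of 27 of the next 50, in 6 of 60 of the next 100 and in 38 of 489 of the last 816. The 3 Cry lines belong to the part where names and positions match. The cause was not tested.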
